A study of Mus musculus with 10 samples.

Results

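The voltage-gated calcium channel genes measured here were Cacna1a, Cacna1b, Cacna1c, Cacna1d, Cacna1e, Cacna1g, Cacna1h and Cacna1i, which encode pore-forming α1 subunits, together with the auxiliary subunit genes Cacna2d1 and Cacnb4. They were picked by symbol, through the gene identifier without its version, and all 10 were found among the 22255 genes of the count table. RNA was taken from synaptoneurosomes of the hippocampus, a preparation of pinched-off and resealed presynaptic and postsynaptic compartments, of wild-type C57Bl/6J mice. A group of 5 libraries came from mice given AM6545 sub-chronically, and the other group of 5 from mice given vehicle. AM6545 blocks the CB1 cannabinoid receptor and is known as a compound restricted largely to the periphery. The age and sex of the mice, the dose and whether a library holds 1 animal or a pool are not given in the sources used here, so p-values measure the spread between these libraries. The question was whether RNA of these channel subunits differed between the groups, and in which proportions the channel types were present in vehicle libraries.

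Library totals ranged from 18106112 to 25899794 estimated counts. Marker genes of excitatory neurons averaged 7.08 to 7.41 on the log2 CPM scale (CPM, counts scaled to a common library total) and those of inhibitory neurons 5.57 to 6.01. Oligodendrocyte markers, at 9.84 to 10.9, and astrocyte markers, at 7.36 to 7.98, were as high or higher. Choroid plexus markers were also present, at 1.42 in vehicle replicate 4 and at 4.01 to 6.01 in the others. In such bulk RNA, fewer cells of a type and less RNA per cell cannot be told apart.

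Voltage-gated calcium channels open when the membrane depolarises and let calcium in, which triggers transmitter release at presynaptic terminals and shapes spikes and gene transcription in dendrites and cell bodies. The α1 subunit forms the pore and sets the channel type. Cacna1a (P/Q-type) and Cacna1b (N-type) carry most of the calcium that triggers release, Cacna1c and Cacna1d (L-type) couple activity to transcription, Cacna1e (R-type) acts in spines and terminals, and Cacna1g, Cacna1h and Cacna1i (T-type) open at small depolarisations. The products of the 5 high-voltage-activated α1 genes assemble with an α2δ subunit such as the product of Cacna2d1, which promotes delivery to the membrane, and a β subunit such as the product of Cacnb4, which binds the linker between the first and second repeats of α1.

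The division of the 8 α1 genes into high-voltage-activated and T-type channels can be read from the codon that sets calcium selectivity. Each α1 protein has 4 homologous repeats, each with a pore loop, and 30 bases of coding sequence around the selectivity residue of the third repeat are shown 5′ to 3′ with that codon in capitals, from the GENCODE M21 transcripts on GRCm38.
Cacna1a: gtgtccacaggaGAGggctggccacaggtc
Cacna1b: gtgtccacgggaGAGgggtggcccatggtg
Cacna1c: gtctccaccttcGAAgggtggccagagctg
Cacna1d: gtctcaacttttGAGggctggcccgcgttg
Cacna1e: gtctctacagggGAAggatggcctcaggtt
Cacna1g: ctggcctccaagGATggctgggttgacatc
Cacna1h: ctgtcatccaagGATggctgggtaaacatc
Cacna1i: ttggcctccaagGATggctgggtgaacatc
In the third repeat the 5 high-voltage-activated genes carry a glutamate codon (GAG or GAA) and the 3 T-type genes an aspartate codon (GAT). The first and second repeats encode glutamate in all 8 genes, and the fourth repeat divides them as the third does. The residue pattern by which β subunits bind was searched for over the whole protein. It was found once in each high-voltage-activated α1 protein and in none of the T-type proteins.

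The genes lie apart in the genome, with coordinates given for GRCm38 as annotated in GENCODE M21. Cacna1a is at chr8:84388440-84640246 on the plus strand, Cacna1b at chr2:24603887-24763152 on the minus strand and Cacna1e at chr1:154390731-154884501 on the minus strand. The L-type genes are Cacna1c at chr6:118587240-119196418 and Cacna1d at chr14:30039939-30491455, both on the minus strand. The T-type genes are Cacna1g at chr11:94408391-94474198 and Cacna1h at chr17:25374285-25433783, both on the minus strand, and Cacna1i at chr15:80287238-80398279 on the plus strand. Cacna2d1 is at chr5:15934691-16374511 on the plus strand and Cacnb4 at chr2:52428320-52676831 on the minus strand. Exons of 4 members overlap a gene on the opposite strand, by 435 bases for Cacna1a (Gm16183), 589 for Cacna1d (Chdh), 158 for Cacna1h (Tpsg1) and 1433 for Cacnb4 (A430018G15Rik). The use of strand in counting is not given in the sources used here, so reads from those stretches cannot be told apart.

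Of the members, Cacna2d1 and Cacnb4 RNA were highest in vehicle libraries and Cacna1e RNA was the highest of the α1 genes. Levels were compared between genes per length, as CPM per kilobase, on a pair of scales. The first divides each transcript's counts by its own length in GENCODE M21, and the second divides the gene's counts by the length of its longest coding transcript. Cacna2d1 stood at 18.2 ± 2.25 CPM per kilobase on the first scale and 16.5 ± 2.08 on the second (SD, n = 5). Cacnb4 stood at 15.9 ± 1.48 and 15.5 ± 1.48 CPM per kilobase, and its 5 values overlapped those of Cacna2d1. Cacna1e stood at 5.29 ± 0.499 and 5.18 ± 0.472 CPM per kilobase, below every Cacnb4 value and above every value of the other α1 genes.

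The other α1 genes formed a graded order in which most neighbours overlapped. Cacna1a followed at 3.68 ± 0.483 CPM per kilobase by own transcript lengths and 3.01 ± 0.232 by the longest coding transcript, and Cacna1h at 3.16 ± 0.350 and 2.43 ± 0.245. Cacna1b stood at 2.11 ± 0.424 and 2.06 ± 0.477 CPM per kilobase. Cacna1d, at 2.60 ± 0.382 and 1.45 ± 0.185, was above Cacna1b on the first scale and below it on the second, so the order of this pair depended on the length used. Cacna1c stood at 1.63 ± 0.342 and 1.28 ± 0.201 CPM per kilobase and Cacna1g at 1.61 ± 0.300 and 1.10 ± 0.130. Cacna1i was lowest, at 0.874 ± 0.193 CPM per kilobase on both scales. Among the 9 pairs of neighbours in the order, the vehicle ranges did not overlap between Cacnb4 and Cacna1e or between Cacna1e and Cacna1a on either scale, nor between Cacna1g and Cacna1i on the first scale.

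The first scale counts short noncoding models as well as coding transcripts, which bears most on Cacna1a and Cacna1d. For Cacna1a, 53.6% of the vehicle counts fell on transcripts that have no name in GENCODE M21, and these counts are left out of the first scale. Of its 3.68 CPM per kilobase on that scale, coding transcripts gave 1.21, and the noncoding model Cacna1a-210, which is 549 bases long and held 4.64% of the gene's counts, gave 2.02. For Cacna1d, 30.01% of the counts fell on transcripts with no name, 55.9% on retained-intron models and 5.37% on coding transcripts, and coding transcripts gave 3.02% of its level on the first scale. Coding transcripts gave 69.1% of this level for Cacna1g, 71.7% for Cacna1h and 76.9% for Cacna1c. They gave 96.9% or more for Cacna1b, Cacna1e, Cacna1i, Cacna2d1 and Cacnb4. Each type's share is taken of the sum over all 8 α1 genes. By own transcript lengths none of the 5 shares, R-type and N-type included, is therefore a share of coding RNA alone.

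The 5 channel types were all present in vehicle libraries, and R-type and T-type RNA made up the largest shares of α1 RNA. By own transcript lengths, R-type RNA (Cacna1e) was 25.4 ± 2.42% and T-type RNA (Cacna1g, Cacna1h and Cacna1i) 26.9 ± 1.99% of α1 RNA (SD, n = 5). By the longest coding transcript, the same shares were 29.9 ± 2.47% and 25.3 ± 1.40%, so the order of R-type and T-type turned with the length scale. Single libraries gave R-type shares of 21.6, 28.2, 25.9, 26.0 and 25.2% and T-type shares of 30.3, 27.1, 25.7, 26.0 and 25.6% by own transcript lengths. Vehicle replicate 1 thus had the lowest R-type and the highest T-type share.

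P/Q-type and N-type RNA, the types that support most transmitter release, were smaller shares. P/Q-type RNA (Cacna1a) was 17.6 ± 1.34% by own transcript lengths and 17.3 ± 0.428% by the longest coding transcript, and was 23.0% when the unnamed counts were added at the longest coding length. On that last scale the R-type share was 23.1%, so Cacna1e and Cacna1a then stood level. N-type RNA (Cacna1b) was 10.01 ± 1.37% and 11.8 ± 2.13%. By own transcript lengths N-type was the lowest type in every vehicle library, with 12.1, 8.73, 10.6, 9.13 and 9.45%. This rank depended on the length used. By the longest coding transcript N-type (14.8%) was above L-type (14.3%) in vehicle replicate 1. With the length of all annotated exons the vehicle mean was 15.6% for N-type and 14.05% for L-type. L-type RNA (Cacna1c and Cacna1d) was 20.1 ± 1.85% and 15.7 ± 1.18%. Within the L-type, Cacna1d gave 12.4% and Cacna1c 7.72% of α1 RNA by own transcript lengths, where little of the Cacna1d level is coding. By the longest coding transcript they gave 8.39% and 7.32%. With no length correction Cacna1d (6.72%) was below Cacna1c (8.88%), so the order of this pair depended on the length used. Within the T-type, by own transcript lengths, Cacna1h gave 15.1%, Cacna1g 7.68% and Cacna1i 4.13%.

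**Figure D1:**
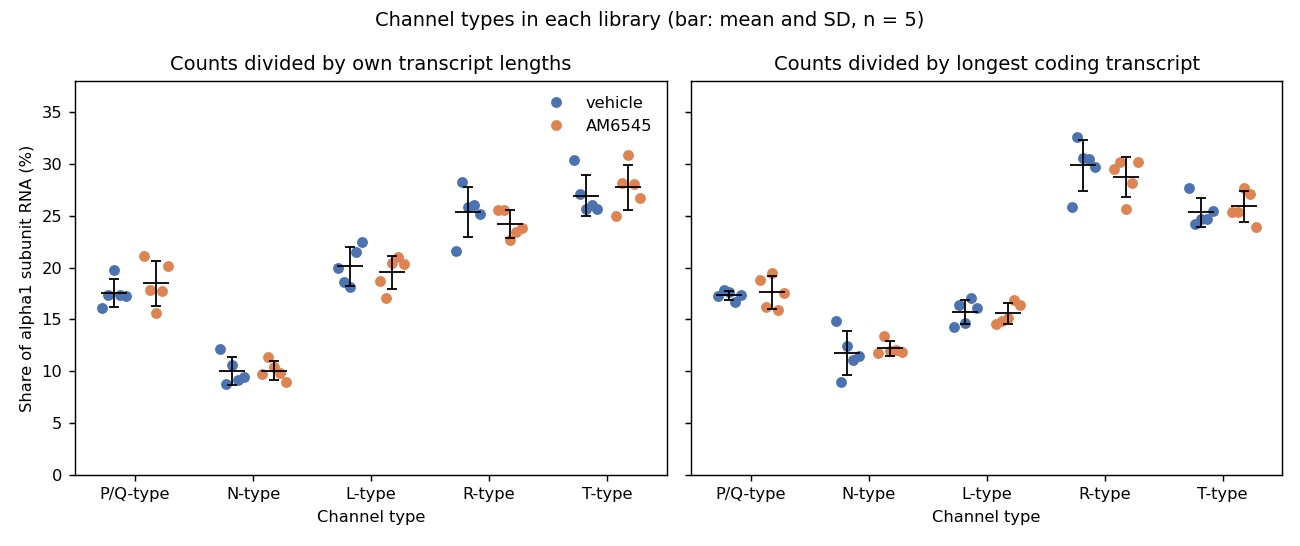
Share of α1 RNA (percent, y axis) for the P/Q, N, L, R and T channel types (x axis) in each of the 10 libraries, by own transcript lengths (left) and by the longest coding transcript (right); points are libraries and bars are the mean and SD of each group (n = 5). The vehicle and AM6545 points overlap for every type, and the R-type share moves from 25.4% by own transcript lengths to 29.9% by the longest coding transcript.

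No channel type's share passed the test between AM6545 and vehicle, and the 2 groups overlapped for all 5 types. By own transcript lengths, P/Q-type RNA was 18.5 ± 2.17% in AM6545 libraries, a difference of 0.945 percentage points (exact permutation test, two-sided, p = 0.373, 0.754 after Benjamini-Hochberg adjustment over the 5 types). R-type RNA was 24.2 ± 1.32%, a difference of -1.19 percentage points (exact permutation p = 0.349, adjusted 0.754). T-type RNA was 27.7 ± 2.17%, a difference of 0.788 (exact permutation p = 0.556, adjusted 0.754). These differences were smaller than the SD of at least 1 of the 2 groups. L-type RNA was 19.5 ± 1.61% with a difference of -0.590 (exact permutation p = 0.603, adjusted 0.754), and N-type RNA 10.1 ± 0.893% with a difference of 0.0491 (exact permutation p = 0.929, adjusted 0.929). By the longest coding transcript the exact permutation p-values lay between 0.397 and 0.881. The smallest p this design allows is 0.00794.

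None of the 10 member genes passed the adjusted threshold between AM6545 and vehicle, where 0% of the 14358 genes tested passed (edgeR quasi-likelihood test, Benjamini-Hochberg adjusted p under 0.05). All 10 entered the test. Their log2 fold changes lay between -0.13 and 0.09, with standard errors of 0.094 to 0.20, and their adjusted p-values were all 0.9998. At an unadjusted p under 0.05 there were 0 members, against 1.88% of all genes tested, and DESeq2 and limma-voom also called 0 members. Of the members, 4 had a positive and 6 a negative log2 fold change, with a median of -0.01, and the median over all genes tested was -0.0057. The groups overlapped in CPM for every member, while 0.293% of all genes tested had groups that did not overlap. Intervals of 2 standard errors either side of the 10 estimates together ran from 0.770-fold to 1.34-fold. On simulated counts for this comparison the fit called 28 of 50 genes changed by 1.5-fold and 40 of 50 changed by 2-fold. Those genes were drawn at random from all genes tested, for which changes of such size could be missed. Recovery for genes with the members' counts and spread was not simulated.

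The genes of the channels that trigger release overlapped between the groups. Cacna1a RNA was 24.2, 20.7, 25.5, 24.4 and 24.7 CPM in vehicle replicates 1 to 5 and 27.4, 20.1, 32.3, 22.9 and 18.2 CPM in AM6545 replicates 1 to 5. The AM6545 libraries spread to both sides of the vehicle range, and the means were 23.9 ± 1.84 and 24.2 ± 5.70 CPM (log2 fold change 0.02, SE 0.14). Cacna1b RNA was 25.5, 12.8, 22.1, 19.9 and 20.1 CPM with vehicle and 20.99, 20.5, 24.4, 21.3 and 15.03 CPM with AM6545. Vehicle replicate 2 was lowest and vehicle replicate 1 highest for this gene, with means of 20.1 ± 4.65 and 20.4 ± 3.38 CPM (log2 fold change 0.02, SE 0.16).

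Cacna1e, the R-type gene, had more counts than any other α1 gene in every library. Its RNA was 68.2, 71.4, 83.1, 83.8 and 79.6 CPM with vehicle and 81.0, 70.5, 80.1, 76.2 and 58.8 CPM with AM6545. AM6545 replicate 5 was the lowest of the 10 and the other 4 AM6545 values lay inside the vehicle range. The means were 77.2 ± 7.05 and 73.3 ± 9.11 CPM (log2 fold change -0.07, SE 0.11).

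The L-type genes, whose channels open to sustained depolarisation in cell bodies and dendrites, overlapped throughout. Cacna1c RNA was 15.05, 13.3, 19.2, 19.3 and 17.2 CPM with vehicle and 16.8, 13.6, 19.5, 19.3 and 13.4 CPM with AM6545 (log2 fold change -0.02, SE 0.14). Cacna1d RNA was 11.99, 12.1, 10.5, 14.6 and 13.8 CPM with vehicle and 12.2, 11.2, 14.7, 13.8 and 9.74 CPM with AM6545 (log2 fold change -0.04, SE 0.13). For both genes the AM6545 libraries covered nearly the same span of values as the vehicle libraries.

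Among the T-type genes, which support burst firing, Cacna1g had the largest positive estimate of the members. Its RNA was 9.56, 8.05, 8.14, 9.99 and 10.5 CPM with vehicle and 12.01, 7.75, 11.9, 10.9 and 6.63 CPM with AM6545. In 3 AM6545 libraries Cacna1g was above every vehicle library and in the other 2 below every one, so the means of 9.24 ± 1.09 and 9.83 ± 2.48 CPM differed by less than the spread (log2 fold change 0.09, SE 0.16). Cacna1h RNA was 22.04, 16.8, 21.2, 20.4 and 19.8 CPM with vehicle and 19.6, 18.3, 25.9, 21.5 and 14.8 CPM with AM6545 (log2 fold change -0.0016, SE 0.13). Cacna1i RNA, the least abundant, was 10.5, 5.45, 9.28, 8.52 and 8.97 CPM with vehicle and 8.20, 8.12, 12.01, 9.86 and 5.24 CPM with AM6545 (log2 fold change 0.02, SE 0.20). AM6545 replicate 3 was highest and AM6545 replicate 5 lowest for both Cacna1h and Cacna1i.

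The auxiliary subunits had negative estimates within the spread. Cacna2d1 RNA, whose product is the target of gabapentin, was 121.4, 97.0, 130.6, 136.8 and 128.5 CPM with vehicle and 126.9, 125.3, 129.0, 124.9 and 87.4 CPM with AM6545. A single low library in each group, vehicle replicate 2 and AM6545 replicate 5, set most of the spread, and the means were 122.8 ± 15.5 and 118.7 ± 17.6 CPM (log2 fold change -0.05, SE 0.12). Cacnb4 RNA was 129.1, 144.1, 109.9, 129.5 and 126.7 CPM with vehicle and 111.9, 121.6, 107.3, 118.9 and 125.5 CPM with AM6545. AM6545 replicate 3 was below every vehicle library and the other 4 AM6545 values lay inside the vehicle range. The means were 127.9 ± 12.2 and 117.0 ± 7.38 CPM, with the smallest p of the members (log2 fold change -0.13, SE 0.094).

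**Figure D2:**
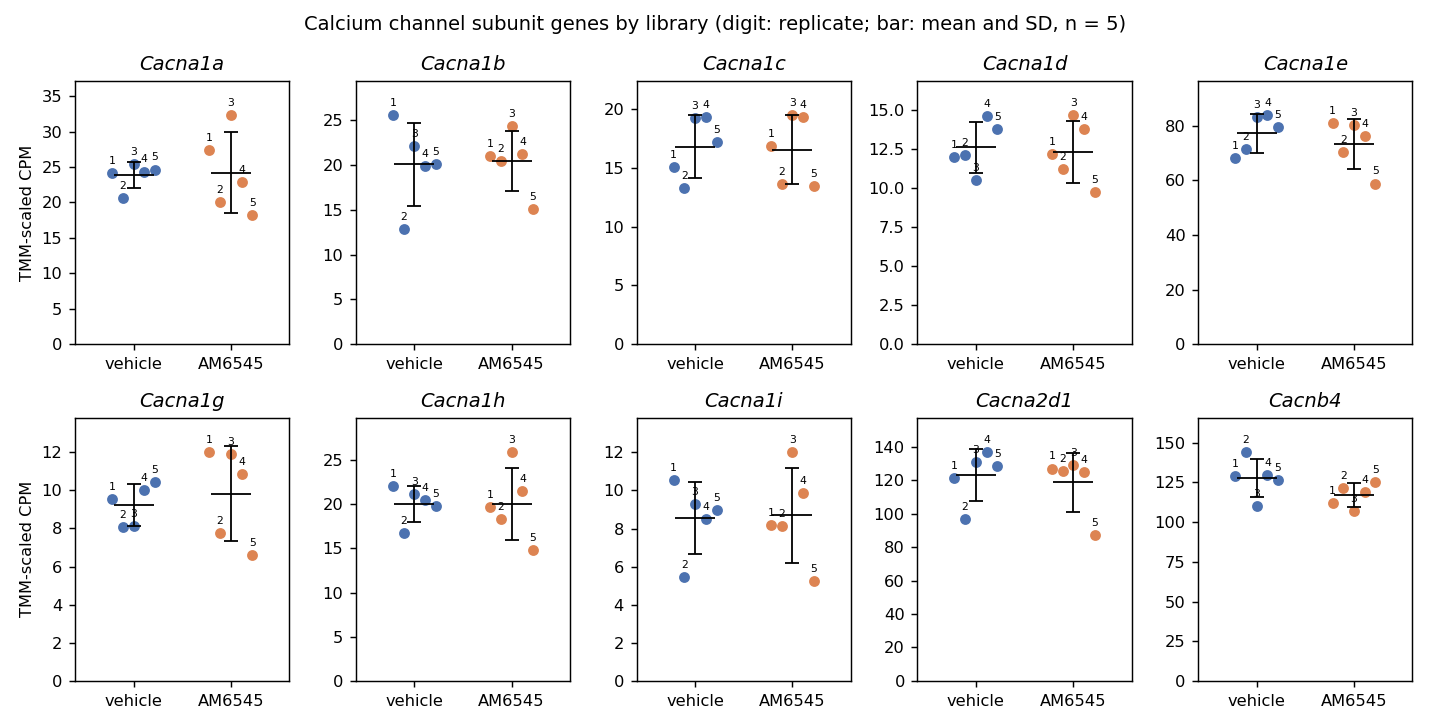
RNA level (CPM scaled by TMM, each panel with its own axis from 0) of the 10 members, vehicle beside AM6545; points are libraries with the replicate number, and bars are the mean and SD of each group (n = 5). The groups overlap in every panel, and AM6545 replicate 5 is the lowest point for Cacna1e (58.8 CPM) and Cacna2d1 (87.4 CPM).

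**Figure D3:**
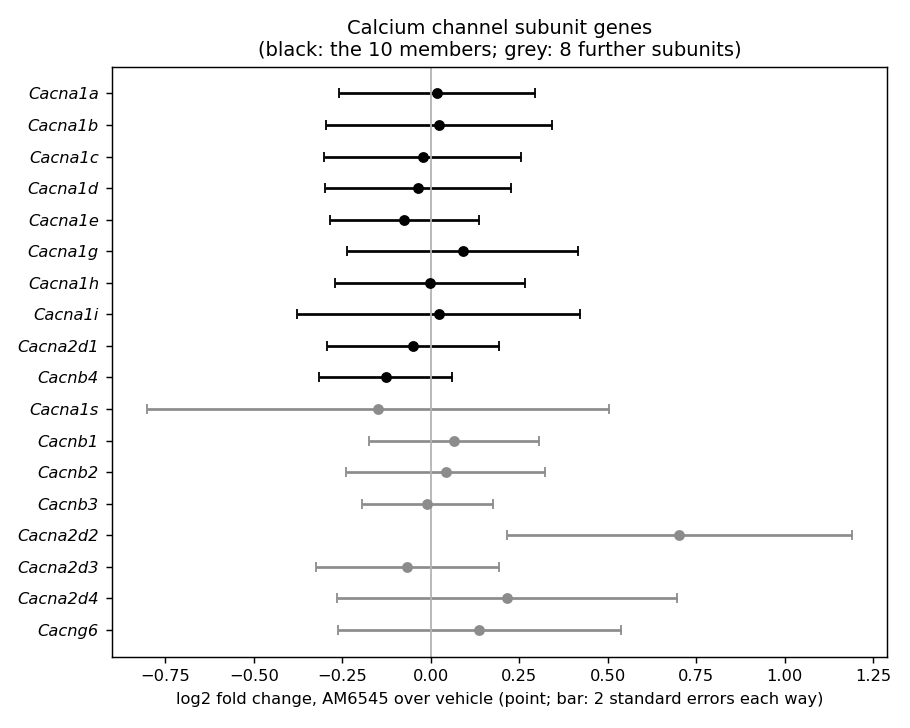
Log2 fold change, AM6545 against vehicle, of the 10 members and of the 8 other calcium channel subunit genes tested (grey), with bars of 2 standard errors either side. All member bars cross 0, with estimates from -0.13 to 0.09.

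The α1 genes moved together from library to library, and this spread was larger than any difference between the groups. Summed α1 RNA was 187.1, 160.6, 199.0, 200.9 and 194.4 CPM with vehicle and 198.2, 170.1, 220.7, 195.6 and 141.9 CPM with AM6545. In AM6545 replicate 5 all 8 α1 genes were below their mean over the 10 libraries, and 6 of them were at their lowest. In vehicle replicate 2 all 8 were also below the mean, and in AM6545 replicate 3 none was, with 5 at their highest. The 2 lowest and the highest library thus came from both groups. The coefficient of variation was larger in AM6545 than in vehicle libraries for 8 of the 10 members, with ranges of 6.30 to 28.7% and 7.71 to 23.1%, a difference that was not tested.

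Cacna2d1 followed the α1 genes and Cacnb4 did not. Cacna2d1 deviated from its 10-library mean by -0.45 on the log2 CPM scale in AM6545 replicate 5 and by -0.30 in vehicle replicate 2. Cacnb4 deviated by 0.04 and 0.24 in the same libraries and by -0.19 in AM6545 replicate 3, where α1 RNA was highest. Over the 10 libraries, which share their depth and composition between genes, Pearson's r was above 0 for 28 of 28 pairs of α1 genes (median 0.70, range 0.34 to 0.96) and for 8 of 8 pairs of an α1 gene with Cacna2d1 (median 0.77). It was above 0 for 0 of 9 pairs with Cacnb4 (median -0.57). Without the 2 libraries of lowest α1 RNA these medians were 0.45, 0.15 and -0.30, so the pattern rested in large part on those libraries.

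Values for long transcripts and for some marker lists also differed in the libraries of lowest and highest α1 RNA, and their part in the pattern was not tested. The share of counts in 980 other genes with coding transcripts of 8000 bases or more was 4.34% in AM6545 replicate 5, the lowest, but 5.03% in vehicle replicate 2, above most others. In AM6545 replicate 5 the markers of CA1 pyramidal cells (5.88), dentate granule cells (4.82) and microglia (5.92) were at their lowest on the log2 CPM scale. Choroid plexus markers (6.01) were at their highest there. The 2 smooth muscle markers tested, of a list of 4, averaged 2.99 in AM6545 replicate 5 and 3.21 in vehicle replicate 1, and 0.69 to 2.17 elsewhere. In AM6545 replicate 3, where α1 RNA was highest, oligodendrocyte (10.9), red blood cell (7.44) and astrocyte (7.98) markers were at their highest, with other libraries up to 10.5, 6.75 and 7.86. Markers of oligodendrocyte precursors (3.86) and thalamic neurons (4.10) were also at their highest there, and those of endothelial cells and pericytes (0.93) at their lowest. In vehicle replicate 2 the dentate granule markers (5.26) were at their highest and the inhibitory neuron markers (5.57) at their lowest. No marker of these lists was at 0 in all libraries.

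**Figure D4:**
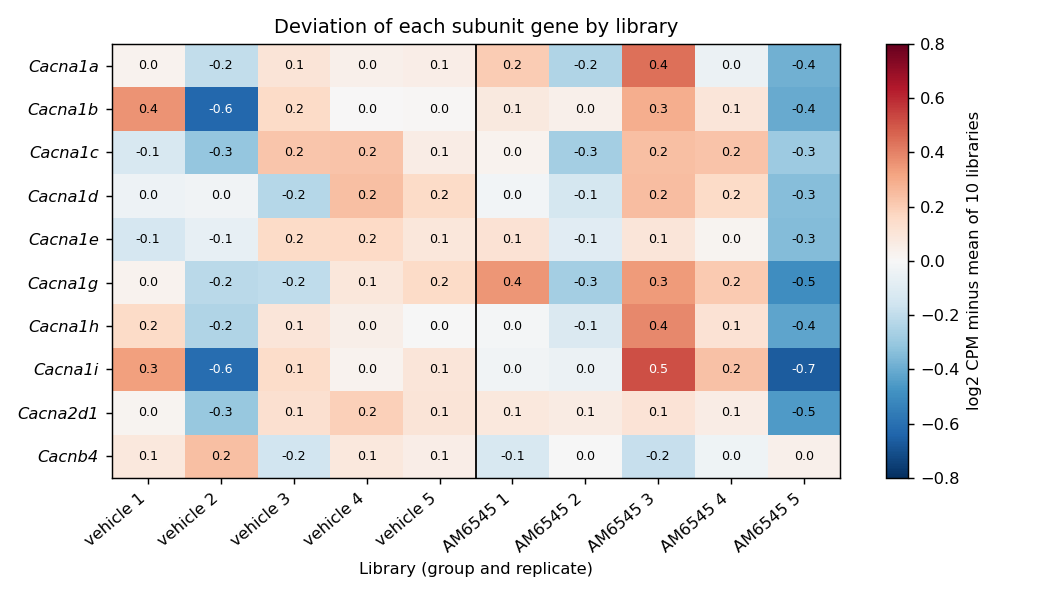
Deviation of each member (rows) from its mean over the 10 libraries (log2 CPM, colour and printed value) by library (columns). The α1 genes and Cacna2d1 are low together in vehicle replicate 2 and AM6545 replicate 5, where Cacnb4 deviates by 0.24 and 0.04.

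The genes outside the family whose log2 CPM over the 10 libraries was most like the members' mean were Sorl1 (r = 0.96), Scn8a (r = 0.95) and Plxna2 (r = 0.95), whose longest coding transcripts are 10715, 11436 and 11040 bases. For single members the closest genes were Gria3 for Cacna1e (r = 0.99), Tmem206 for Cacna1b (r = 0.98), Gprc5b for Cacna1h (r = 0.97) and Sp100 for Cacnb4 (r = 0.88). The longest coding transcripts of these genes are shorter, at 5192, 2246, 4518 and 2708 bases. The r values are the highest of 14348 each and are given as a description.

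RNA of Cacna2d1 and of Cacnb4 was set against α1 RNA as a ratio of levels by own transcript lengths. Other α2δ and β genes are left out and α1 RNA on this scale includes noncoding models. The ratios are thus not the stoichiometry of the subunits. Cacna2d1 per α1 RNA was 0.869 ± 0.0369 in vehicle and 0.846 ± 0.0813 in AM6545 libraries (exact permutation test, two-sided, p = 0.603, 0.603 after adjustment over 3 ratios). Cacnb4 per α1 RNA was 0.772 ± 0.159 and 0.711 ± 0.140 (exact permutation p = 0.563, adjusted 0.603). Against high-voltage-activated α1 RNA alone, with which β subunits assemble, Cacnb4 was 1.06 ± 0.224 and 0.983 ± 0.186 (exact permutation p = 0.595, adjusted 0.603). The ratio of Cacnb4 to α1 was highest in the libraries with little α1 RNA, at 1.05 in vehicle replicate 2 and 0.895 in AM6545 replicate 5. As α1 RNA is the denominator, low α1 RNA by itself raises this ratio, so the values are no separate result. Without AM6545 replicate 2, whose Cacna2d1 ratio of 0.985 was the highest, the difference in Cacna2d1 per α1 RNA was -0.0584 with an exact permutation p of 0.0476, not adjusted. That value comes from 1 of 10 libraries left out in turn.

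Of 117 named transcripts of the members, 25 passed the filter and none passed the adjusted threshold, where 0.00314% of the 31848 transcripts tested did (edgeR). Their log2 fold changes had a median of -0.08, against -0.0025 over all transcripts tested. At an unadjusted p under 0.05 there was 1 member transcript, Cacnb4-202, against 1.97% of all transcripts tested. Estimates split between similar transcripts can move from one to the other, so transcript values are less certain than gene values.

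Cacnb4 RNA was divided among 3 coding transcripts that differ in their first coding bases, shown 5′ to 3′ with the start codon in capitals because they set the amino terminus of the β subunit.
Cacnb4-201: ATGtcgtcctcgtacggcaagaacggggcg
Cacnb4-202: ATGtatgacaatttgtacctgcatggagtt
Cacnb4-203: ATGgctgggtcagcagattcctatacaagc
They encode proteins of 519, 486 and 473 residues. In vehicle libraries they held 42.5 ± 10.03, 36.3 ± 5.42 and 21.2 ± 6.05% of the counts of the 3, and in AM6545 libraries 47.5 ± 2.66, 32.2 ± 4.86 and 20.3 ± 4.45%. Cacnb4-202 RNA was 44.9, 43.1, 48.5, 49.7 and 43.2 CPM with vehicle and 30.4, 47.3, 37.7, 34.7 and 37.7 CPM with AM6545. In 4 of 5 AM6545 libraries it was below every vehicle library, with means of 45.9 ± 3.05 and 37.6 ± 6.20 CPM (log2 fold change -0.29, SE 0.11, edgeR adjusted p = 0.9999). The estimate for Cacnb4-201 was 0.0020 (SE 0.21) and that for Cacnb4-203 was -0.18 (SE 0.21).

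Cacna2d1 RNA was held mainly by a pair of coding transcripts whose coding sequences differ by an insert of 21 bases, or 7 residues. The insert is shown in capitals within Cacna2d1-205 and is absent at the matching junction of Cacna2d1-202.
Cacna2d1-205: agatGTAACTTGGGGATATTTTCAGattca
Cacna2d1-202: taactcaggccagatattcagaaaccctga
The insert spans coding bases 1874 to 1894. The full transcripts are 7436 (Cacna2d1-205) and 7311 bases (Cacna2d1-202) long, so they also differ outside the coding sequence. The division of counts between them is therefore not a measure of the insert alone. The estimated counts of Cacna2d1-205 were 1763, 1380, 1415, 1792 and 843 in vehicle and 2605, 2211, 1345, 881 and 1584 in AM6545 libraries. Those of Cacna2d1-202 were 561, 474, 888, 1268 and 1902 in vehicle and 431, 0, 767, 1844 and 0 in AM6545 libraries. The 0 values stood in AM6545 replicates 2 and 5, and in vehicle replicate 5 and AM6545 replicate 4 Cacna2d1-202 was the larger of the pair. Cacna2d1-205 was 60.2 ± 18.2% of the pair in vehicle (30.7 to 75.9%) and 76.4 ± 28.8% in AM6545 libraries (32.3 to 100%), ranges that overlapped.

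The transcripts of Cacna1b were divided as unevenly. Cacna1b-204 had estimated counts of 85, 100, 254, 483 and 471 in vehicle and 351, 103, 309, 324 and 144 in AM6545 libraries, and Cacna1b-202 had 433, 163, 168, 0 and 0 in vehicle and 177, 288, 129, 176 and 157 in AM6545 libraries. Cacna1b-204 was thus 16.5% of the pair in vehicle replicate 1 and 100% in vehicle replicates 4 and 5, and 26.4 to 70.5% in AM6545 libraries. The means of 62.9 ± 37.2% in vehicle and 55.2 ± 18.3% in AM6545 libraries differed by less than the spread within either group.

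**Figure D5:**
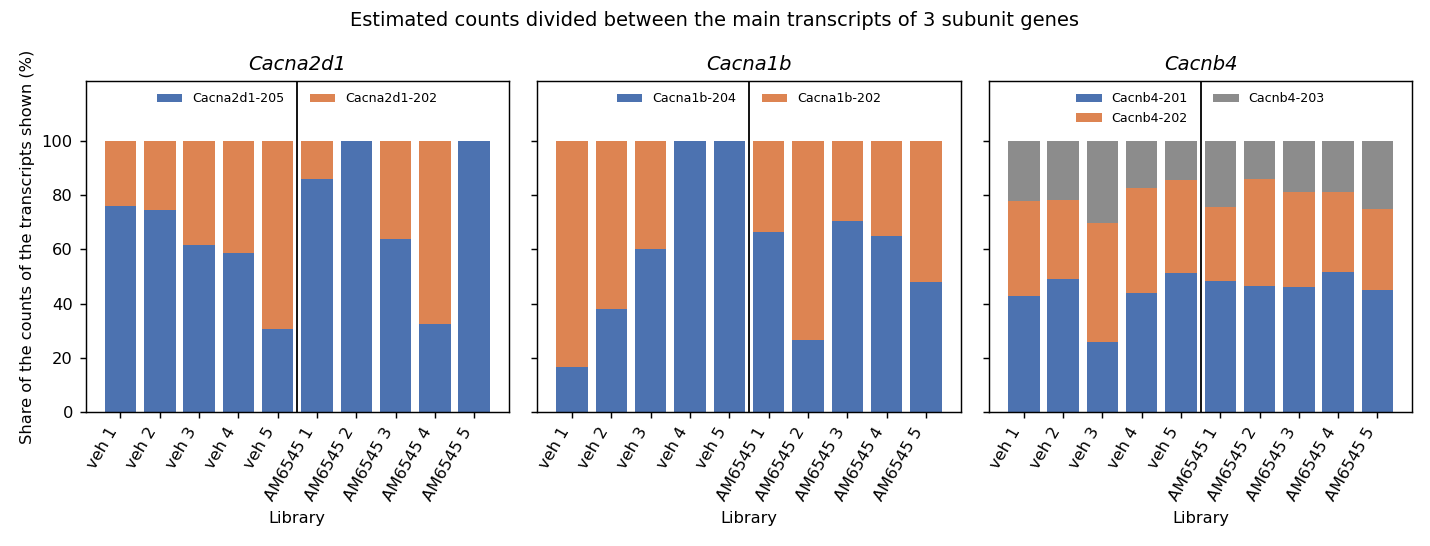
Division of Cacna2d1, Cacna1b and Cacnb4 estimated counts among their main transcripts (percent) in each library. Cacna2d1-205 ranges from 30.7 to 100% and Cacna1b-204 from 16.5 to 100% of its pair, while the 3 Cacnb4 transcripts are present in every library.

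Other members rested on 1 main transcript or on few counts per transcript. A single transcript held most vehicle counts of Cacna1c (Cacna1c-207, 88.4%), Cacna1e (Cacna1e-203, 99.1%), Cacna1h (Cacna1h-205, 92.6%) and Cacna1i (Cacna1i-202, 100%). Cacna1g-205 held 57.9% of the Cacna1g counts and had a log2 fold change of 0.30 (SE 0.22). Cacna1g-209 held 14.8%, was at 0 in 6 of the 10 libraries and was not tested. The leading Cacna1d transcripts were the retained-intron models Cacna1d-203 at 41.8% and Cacna1d-212 at 13.7%, and Cacna1d-206, a noncoding model with 5 to 20 counts, had a log2 fold change of -0.65 (SE 0.36). Cacna2d1-211, a retained-intron model with 13 to 40 counts, had a log2 fold change of 0.44 (SE 0.33). Cacna1a-201 had estimated counts of 0, 166, 164, 226 and 163 in vehicle and 300, 154, 0, 166 and 34 in AM6545 libraries, with no order by group, and Cacna1a-211 had at most 161.

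A further 10 genes of other channel subunits were listed, of which 8 were tested and none passed the adjusted threshold in edgeR. Per length, the β subunit gene Cacnb3 (32.4 CPM per kilobase by own transcript lengths and 29.5 by the longest coding transcript) stood above Cacnb4 in vehicle libraries, and Cacnb2 (9.76 and 8.98) below it. Cacnb1 stood at 20.9 and 15.1, above Cacnb4 on the first scale and level with it, with overlapping values, on the second. The α2δ gene Cacna2d3 (41.2 and 40.3) stood above Cacna2d1. Cacna2d2 had 1.505, 2.46, 1.82, 1.35 and 1.87 CPM with vehicle and 3.19, 1.96, 3.09, 2.12 and 4.30 CPM with AM6545, so that 3 of 5 AM6545 libraries were above every vehicle library. It had the only unadjusted p under 0.05 of this list (log2 fold change 0.70, SE 0.24, edgeR adjusted p = 0.9998), on 31 to 87 counts per library. The skeletal muscle gene Cacna1s had 9 to 20 counts, and the untested genes were the retinal Cacna1f with at most 2 counts and the skeletal muscle Cacng1 with at most 1.

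The partners of the channels at release sites, which tether them to vesicles, did not pass the test either. Of 15 such genes, 8 had a positive and 7 a negative estimate, with a median log2 fold change of 0.0012 and 0 at an unadjusted p under 0.05 in edgeR. Unc13a, a vesicle priming factor, was 48.9 ± 3.67 and 53.8 ± 5.28 CPM (log2 fold change 0.14, SE 0.096). Of 19 modulators such as calmodulins and kinases, 12 were positive and 7 negative, with a median of 0.01, 0 past the adjusted threshold and 0 at an unadjusted p under 0.05 in edgeR. Of 20 genes of calcium clearance, buffering and stores, 12 were positive and 8 negative, and 0 passed the adjusted threshold. Among the 20, 2 had an unadjusted edgeR p under 0.05, where 1.88% of all genes tested did. Calb2, the calcium buffer calretinin, was 46.4 ± 6.88 CPM with vehicle and 65.9 ± 15.7 CPM with AM6545, above every vehicle library in 4 of 5 (log2 fold change 0.50, SE 0.14, edgeR adjusted p = 0.9998). Slc8a3, a sodium-calcium exchanger, was 7.67 ± 1.51 and 10.03 ± 1.30 CPM (log2 fold change 0.38, SE 0.15), a gene named after its values were seen. In the negative direction Pvalb, another calcium buffer, was 28.8 ± 7.97 CPM with vehicle and 23.5 ± 4.65 CPM with AM6545. It was below every vehicle library in 3 of 5 (log2 fold change -0.30, SE 0.17, edgeR adjusted p = 0.9998).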

How the data were processed

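The authors deposited estimated counts per gene and per transcript for 10 libraries, and the submitters' processing notes list Salmon 1.5.2 and mm10 without roles. The annotation release, filters and use of strand are not given in the sources used here. Of the gene values, 38.6% were not whole, and counts were rounded before fitting. Groups and replicate numbers came from the titles.

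Genes and transcripts were each fitted across the whole table with edgeR 4.0.16 in R 4.3.3 (TMM, filterByExpr with minimum count 10 and minimum total 15, robust quasi-likelihood, group alone, two-sided, Benjamini-Hochberg threshold 0.05). CPM values were scaled by TMM. Lengths, names and sequences came from GENCODE M21 (GRCm38), matched without version. Shares and ratios were tested by exact permutation over 252 arrangements. The members and lists were chosen with earlier results of these data known. All members were named, with transcripts holding 10 percent or more of a gene's vehicle counts and the 2 of smallest p in each direction; for the other lists, the gene of smallest p in a direction. Alternatives used other scalings, filters, tests and lengths, limma 3.58.1, DESeq2 1.42.0, a replicate block and leaving out each library. On simulated counts for 14358 genes with 50 changed at each size, the fit recovered 2 of the 1.25-fold changes, 28 of the 1.5-fold, 40 of the 2-fold and 47 of the 3-fold changes. It also called 14 of the 14158 unchanged genes.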

Additional observations from a re-analysis of the deposited data

Results flagged for a closer look

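Of 36 groups of 5 values examined, 4 held 1 library whose gap to the next, as a share of the group's range, passed Dixon's 95% critical value of 0.71, where chance gives about 1 group in 20. Cacna1a in vehicle replicate 2 was low at 20.7 CPM, and the other vehicle libraries lay at 24.2 to 25.5 CPM. Cacna2d1 in AM6545 replicate 5 was low at 87.4 CPM, and the other AM6545 libraries lay at 124.9 to 129.0 CPM. Cacna2d1 per α1 RNA was high in AM6545 replicate 2, at 0.985 against 0.773 to 0.833. Cacnb4 per α1 RNA was high in vehicle replicate 2, at 1.05 against 0.636 to 0.742. In these 3 libraries 7 or 8 of the 8 α1 genes were below their means over the 10 libraries, and the cause was not tested. As α1 RNA is the denominator of the ratios, low α1 RNA by itself raises them.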

How the results depend on the processing

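No member gene and no member transcript named in GENCODE M21 passed the adjusted threshold under any scaling, filter, test, dispersion, block or left-out library tried. Transcripts with no name there, which held many Cacna1a and Cacna1d counts, were not examined as member transcripts. The vehicle shares of the channel types moved with the length used. With no length correction they were 12.7% P/Q, 15.6% L, 41.1% R and 20.1% T, and with the length of all annotated exons 15.6% N, 14.05% L and 29.9% T. With the longest coding transcript they were 11.8% N, 15.7% L and 29.9% R. With unnamed counts added, an alternative chosen after seeing the data, they were 23.0% P/Q and 24.5% T. Leaving out 2 libraries from the correlations was also chosen after seeing the data.

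Estimates near 0 turned sign under some settings, and the cause was not tested. Cacna1a was -0.0489 in limma-voom and -0.0074 with the replicate block, and Cacna1h was 0.0071 with library totals. With the block Cacna1b-204 was 0.0306 and Cacna1d-212 was -0.17. Cacnb4-201 was -0.0065 with DESeq2 size factors and in DESeq2, -0.0061 with no filter and -8.4e-05 with 10 counts in every library. Same-numbered libraries correlated in their deviations from group means at -0.14, -0.19, 0.23, 0.39 and 0.065, so the numbers were not taken as pairs. The replicate block called 0 genes and 0 member transcripts. Pairing by number leaves a difference of group means unchanged by construction. The share differences of 0.945 (P/Q), 0.0491 (N), -0.590 (L), -1.19 (R) and 0.788 (T) percentage points are thus no separate check.

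Leaving out each library in turn gave log2 fold changes from -0.11 to 0.10 for Cacna1a, -0.10 to 0.13 for Cacna1b, -0.10 to 0.0431 for Cacna1c, -0.10 to 0.0372 for Cacna1d, -0.00054 to 0.20 for Cacna1g, -0.11 to 0.0895 for Cacna1h, -0.12 to 0.16 for Cacna1i, -0.12 to 0.0426 for Cacna2d1, -0.12 to -0.0050 for Cacna1e and -0.18 to -0.0809 for Cacnb4. For transcripts they ran from -0.66 to 0.11 (Cacna1a-201), -1.05 to 0.49 (Cacna1a-211), -0.35 to 0.12 (Cacna1b-204), -0.10 to 1.09 (Cacna1b-202), -0.12 to 0.0355 (Cacna1c-207), -0.23 to 0.0591 (Cacna1d-203), -0.27 to 0.45 (Cacna1d-212), -0.14 to 0.0717 (Cacna1h-205), -0.13 to 0.15 (Cacna1i-202) and -0.16 to 0.11 (Cacnb4-201). Ranges that kept their sign were -0.80 to -0.50 (Cacna1d-206), -0.12 to -0.0106 (Cacna1e-203), 0.19 to 0.47 (Cacna1g-205) and 0.12 to 0.46 (Cacna2d1-205). So did -1.63 to -0.43 (Cacna2d1-202), 0.27 to 0.58 (Cacna2d1-211), -0.39 to -0.23 (Cacnb4-202) and -0.31 to -0.0845 (Cacnb4-203). Share differences ran from -0.272 to 0.579 percentage points (N), -1.09 to 0.0152 (L), 0.294 to 1.66 (P/Q), -2.15 to -0.481 (R) and 0.0066 to 1.64 (T), with the smallest exact permutation p, 0.0635, for R. Ratio differences ran from -0.0584 to -0.0055 (Cacna2d1 per α1), -0.107 to 0.0078 (Cacnb4 per α1) and -0.135 to 0.0194 (Cacnb4 per high-voltage-activated α1). Of the 8 α1 genes, 7 had a positive estimate without AM6545 replicate 5 or vehicle replicate 4, and 7 a negative one without AM6545 replicate 3 or vehicle replicate 2.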
